A study of Homo sapiens with 8 samples.

Results

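The 36 genes described here encode aminoacyl tRNA synthetases, the enzymes that load each amino acid onto its transfer RNA before the ribosome can use it. They were chosen by gene symbol from a fixed list, 20 genes for enzymes of the cytosol and 16 for enzymes of the mitochondrion (symbols ending in 2), out of 24462 genes in the deposited count table. All 36 were in the table and all 36 passed the filter on low counts, which left 12577 genes for testing. RNA was sequenced from HepG2, a human cell line from a liver tumour, in 4 libraries of cells overexpressing EDN1 (the gene of the endothelin-1 precursor) and 4 libraries of mock cells. Both groups grew in the same serum-containing medium with antibiotics and had no further treatment. The labels do not give the vector or say whether either group is a clone. They also tie no library to a culture of its own, and the p-values therefore reflect a spread among libraries that may be technical. Libraries are called EDN1 1 to 4 and mock 1 to 4, after the numbers in their labels.

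Each synthetase recognises its own amino acid and its own set of tRNAs, and the cytosolic and mitochondrial enzymes are in most cases products of separate nuclear genes. GARS and KARS serve both compartments, and EPRS joins the glutamyl and prolyl enzymes in a single protein. In mammals 8 of the cytosolic genes in the list (DARS, EPRS, IARS, KARS, LARS, MARS, QARS and RARS) encode parts of the multisynthetase complex, held together by the scaffold proteins AIMP1, AIMP2 and EEF1E1, while the other 12 encode enzymes or subunits outside it. Many cytosolic synthetase genes are known targets of ATF4, the transcription factor that is made when the kinase GCN2 senses uncharged tRNA, and the mitochondrial synthetase genes are in general not described as part of that response.

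ATF4 binds, with a C/EBP partner, to a composite element with the letters TGATGNAA. These letters were searched on both strands in the 250 bases before each RefSeq start (build GRCh38.p14), and windows were matched for 30 members (not for DARS, LARS, VARS, YARS, AARS2 and VARS2). A match was present in 3 of 16 cytosolic and 1 of 14 mitochondrial members. The share was 3.89% over all 27305 genes with a window and 2.33% over the tested genes with a window. The 4 stretches are shown because these genes recur in the results. Each is 30 bases on the gene's own strand, with the matched letters in capitals (the reverse complement in AARS, GARS and IARS). The AARS stretch lies at chr16:70289675-70289704 (minus strand), that of GARS at chr7:30594834-30594863 (plus strand, before the downstream of its annotated starts), that of IARS at chr9:92293698-92293727 (minus strand) and that of YARS2 at chr12:32756076-32756105 (minus strand). A match is a description of these letters and no evidence of binding.
AARS: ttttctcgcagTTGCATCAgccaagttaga
GARS: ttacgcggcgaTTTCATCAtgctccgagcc
IARS: cccgcattttcagcgcgTTGCATCAcctcc
YARS2: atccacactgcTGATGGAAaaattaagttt

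HARS and HARS2, the cytosolic and mitochondrial histidyl enzymes, are divergent neighbours, and their RefSeq starts are 85 bases apart. The 84 bases between the starts, at chr5:140691371-140691454 (GRCh38.p14, plus strand), are shown because the compartments can be compared here across a shared promoter region. Their GC content is 59.5%, and they hold 0 matches to TGATGNAA.
HARS and HARS2: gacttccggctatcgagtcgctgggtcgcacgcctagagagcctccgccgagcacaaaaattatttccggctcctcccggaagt

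Total counts per library were 8571252 to 11686180 in the EDN1 libraries and 8409173 to 14932385 in the mock libraries. EDN1 had 2803, 2284, 4764 and 4752 counts in EDN1 1 to 4 and 29, 9, 9 and 20 counts in mock 1 to 4, so each library matched its label. All 8 liver cell markers had at least 10 counts in every library. Fibroblast markers summed to 0.350 to 3.84 CPM (counts scaled to a fixed library total, here with no TMM factor) in EDN1 libraries and 0.714 to 2.97 CPM in mock libraries. Of these 5 markers 0 had at least 10 counts in every library, and LUM had 0 counts throughout. Of 5 blood cell markers, LYZ and CD68 had at least 10 counts in every library, while CD3E had 0 counts throughout. PTPRC had at most 1 count in any library, and HBB at most 3 counts apart from 34 in mock 4. The blood cell markers summed to 378 to 769 CPM in EDN1 libraries and 413 to 760 CPM in mock libraries. LYZ made up most of this sum (351 to 793 CPM over the 8 libraries, with the TMM factor). The part of these markers in the results was not tested. EDN1 3, EDN1 4 and mock 4, here called the second library set, had the highest values on the first principal component. The remaining 5 libraries are called the first set. On this component, with 40.2% of the variance, the second set lay at 17.1, 48.4 and 32.8, against -30.2 to 2.87 for the first set. Mock 2, at 2.87, lay between the second set and the rest of the first set (-30.2 to -21.4), so the split is not sharp. On the second component, with 29.7% of the variance, the second set lay at 45.8, -12.8 and 5.54. Mock 2 was the lowest library there, at -43.4. No label gives a batch. Results are therefore given over all libraries and within each set, where the second set has a lone mock library that is assumed to vary like the EDN1 libraries.

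Across the cytosolic genes the EDN1 libraries had the lower fitted level in 17 of 20, and across the mitochondrial genes in 7 of 16, but no single member passed the test. The median log2 fold change of EDN1 over mock was -0.22 for the cytosolic genes (range -0.42 to 0.14) and 0.02 for the mitochondrial genes (range -0.27 to 0.38), beside 0.00 for all tested genes. In bulk RNA, fewer cells with a transcript and less of it per cell cannot be told apart. A log2 fold change below 0 was fitted for 49.7% of all tested genes. By the quasi-likelihood test of edgeR, with p-values adjusted over all genes by the Benjamini-Hochberg method, 0 of 36 members were called, and the adjusted p of each was 1.00. The call rate over all genes was 0.00795%, which is EDN1 alone, with 0.00795% called higher and 0% called lower. At an unadjusted p under 0.05 there were also 0 members, against 2.85% of all genes, and the smallest unadjusted p of a member was 0.0812, for KARS. With the library set as a term, 4 members (EPRS, GARS, NARS and SARS) had an unadjusted p under 0.05, against 4.18% of all genes in that fit. The sets were drawn from these same counts, so p-values from fits that use them are a description only. Without EDN1 4 there were 4 such members (GARS, LARS, NARS and SARS, against 5.76% of genes), and without mock 4 there were 2 (AARS and KARS, against 4.58%). Within the first set there was 1 (SARS, against 2.52%), and with the replicate number as a block 1 (AARS, against 4.37%). There was none with other scalings, without the low-count filter, by DESeq2 or limma voom, with rows as deposited, or without any of the other libraries. Over these fits the smallest adjusted p of a member was 0.803 in edgeR. Leaving out 1 library moved the log2 fold change by over 1.5 times, or turned its sign, in 16 of 20 cytosolic and 16 of 16 mitochondrial genes. The median ran from -0.28 (without EDN1 4) to -0.18 (without EDN1 3) for the cytosolic genes and from -0.040 (without EDN1 1) to 0.12 (without EDN1 4) for the mitochondrial genes. The 95% interval excluded a 2-fold difference in either direction for 19 of 20 cytosolic genes (all but AARS) and 15 of 16 mitochondrial genes (all but PARS2).

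**Figure D1:**
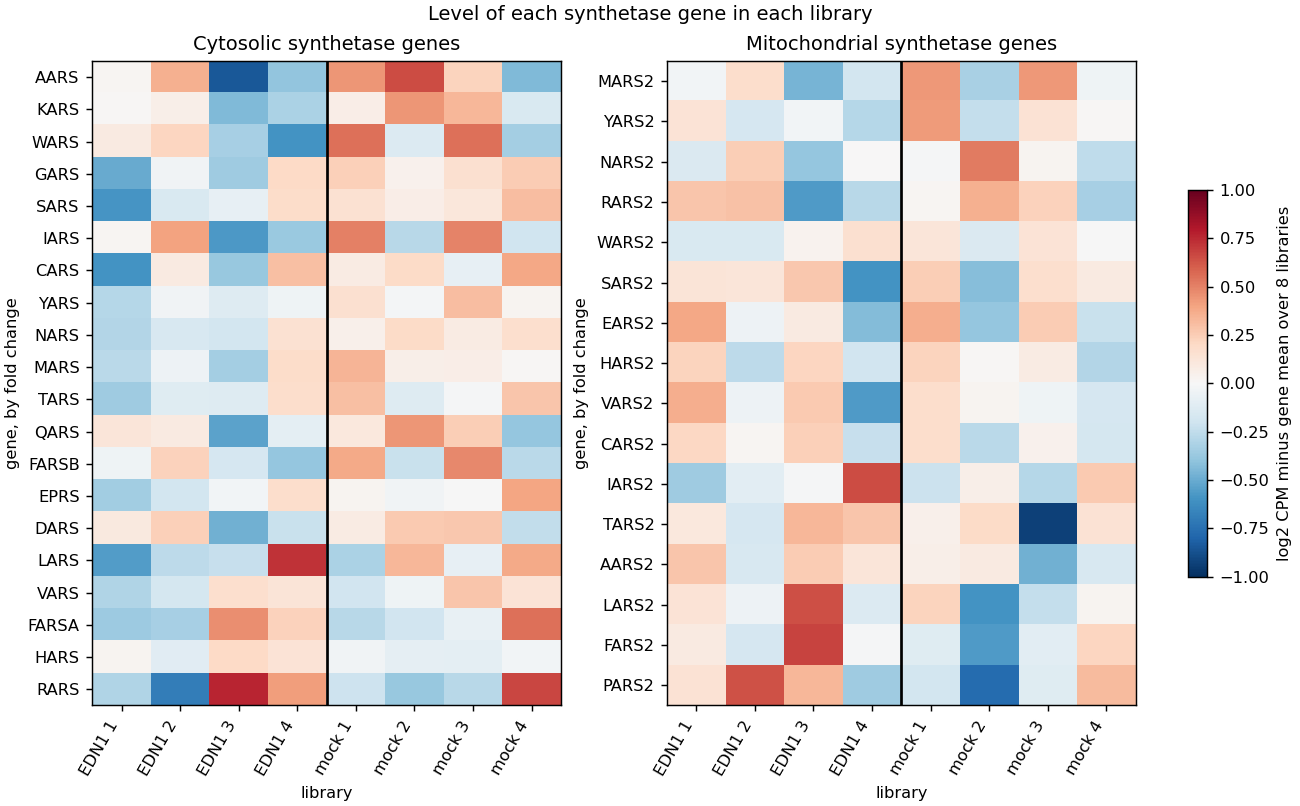
Heat maps of log2 CPM minus the gene's mean over the 8 libraries for the 20 cytosolic (left) and 16 mitochondrial (right) synthetase genes, with genes down the page by fold change and the 4 EDN1 libraries left of the 4 mock libraries. Blue cells gather in EDN1 1 and EDN1 3 for the cytosolic genes, where the lowest library is EDN1 1 for 10 genes and EDN1 3 for 6, while RARS and FARSA are red in EDN1 3, EDN1 4 and mock 4.

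The lowest of the 8 libraries was an EDN1 library for 20 of 20 cytosolic genes and for 9 of 16 mitochondrial genes, against 51.7% of all tested genes. The highest was a mock library for 17 cytosolic genes and 4 mitochondrial genes, against 45.6% of all tested genes. EDN1 1 was the lowest library for 10 cytosolic genes, EDN1 3 for 6, EDN1 2 for 2 and EDN1 4 for 2. At least 2 EDN1 libraries lay below every mock library in 10 of 20 cytosolic genes and in 1 of 16 mitochondrial genes (WARS2), against 19.9% of all tested genes. The 8 libraries fell into groups without overlap in 1 member, YARS, which was lower in EDN1. Over all tested genes the groups did not overlap in 2.04%, with 0.668% lower and 1.38% higher in EDN1, so 1 of 36 is near the background.

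The list mean (the mean over the genes of log2 CPM centred on each gene's mean) for the cytosolic genes was -0.22, -0.03, -0.18 and 0.03 in EDN1 1 to 4 and 0.12, 0.06, 0.15 and 0.08 in mock 1 to 4. The groups did not overlap in this mean, and EDN1 1 and EDN1 3 were the lowest. It averaged -0.10 ± 0.12 in EDN1 and 0.10 ± 0.04 in mock (SD, n = 4 each). For the mitochondrial genes the mean was 0.11, 0.01, 0.12 and -0.13 in EDN1 1 to 4 and 0.12, -0.15, -0.04 and -0.04 in mock 1 to 4, so the groups overlapped. As a share of all counts, the 20 cytosolic genes took 0.275%, 0.309%, 0.290% and 0.319% in EDN1 1 to 4 and 0.358%, 0.318%, 0.337% and 0.340% in mock 1 to 4. The 16 mitochondrial genes took 0.0379% to 0.0430% in EDN1 libraries and 0.0344% to 0.0416% in mock libraries.

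**Figure D2:**
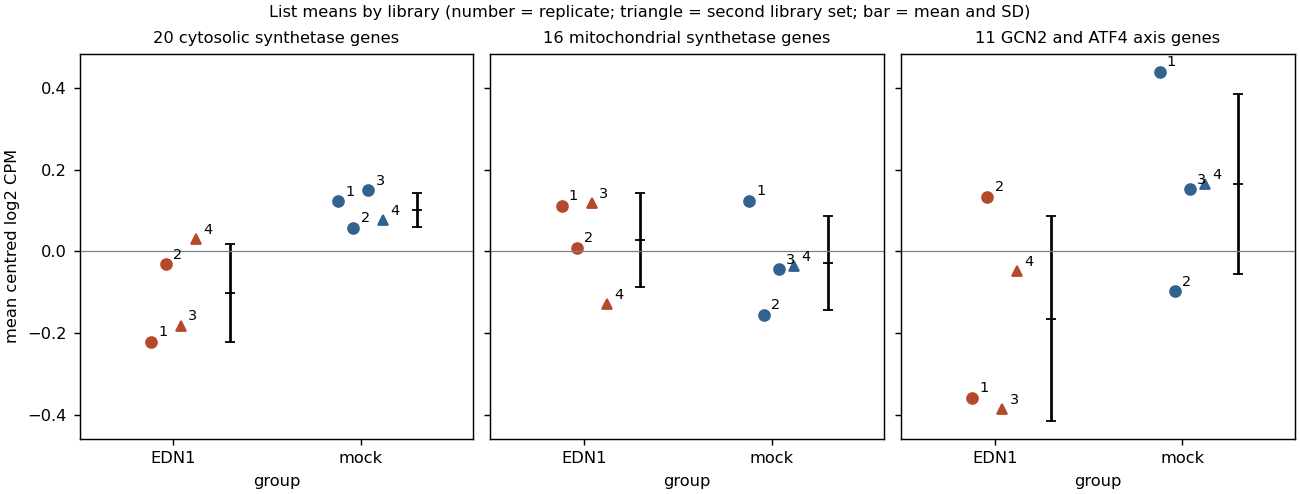
Mean centred log2 CPM (vertical axis) of the 20 cytosolic synthetase genes, the 16 mitochondrial synthetase genes and 11 genes of the GCN2 and ATF4 axis, 1 point per library, with EDN1 left of mock, triangles for the second library set and bars for the mean and SD of 4 libraries. The cytosolic mean is at most 0.03 in EDN1 libraries and at least 0.06 in mock libraries, and the mitochondrial means overlap.

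Within the library sets the cytosolic pattern of signs was similar. The log2 fold change was below 0 in 19 of 20 cytosolic genes within the first set (median -0.26) and in 18 of 20 within the second (median -0.15), and in 19 of 20 (all but HARS) with the library set as a term in the fit (median -0.23). For the mitochondrial genes it was below 0 in 6 of 16 within the first set (median 0.09), in 5 of 16 within the second (median 0.08) and in 6 of 16 with the set as a term (median 0.06). No member was called in any of these fits.

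The enzymes of the multisynthetase complex had a log2 fold change below 0 in 7 of 8 genes (median -0.20), and the cytosolic genes outside the complex in 10 of 12 (median -0.24). KARS, the lysyl enzyme, had 235, 242, 171 and 187 CPM in EDN1 1 to 4 and 244, 316, 292 and 209.8 CPM in mock 1 to 4. EDN1 3 and EDN1 4 lay below every mock library, and EDN1 1 and EDN1 2 lay within the mock range. Its log2 fold change was -0.35 (SE 0.18, 95% interval -0.74 to 0.05), with -0.25 in the first set and -0.24 in the second.

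MARS, the methionyl enzyme, had 263, 306, 250.2 and 360.2 CPM in EDN1 1 to 4 and 401, 331, 331 and 320.4 CPM in mock 1 to 4. The first 3 EDN1 libraries were below every mock library, while EDN1 4 was above all but mock 1. For MARS the log2 fold change was -0.23 (SE 0.16), with -0.32 in the first set and -0.08 in the second. In the GENCODE 29 annotation exons of MARS overlap exons of DDIT3, a stress transcription factor gene, on the opposite strand. The use of strand is not stated, so reads from the shared stretch may not be separable. DDIT3 had 108, 140.2, 96.1 and 119 CPM in EDN1 1 to 4 and 173, 129, 137 and 131 CPM in mock 1 to 4, a log2 fold change of -0.30 (SE 0.16).

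The remaining complex members had smaller fitted differences relative to their spread. EPRS, the bifunctional enzyme, averaged 92.9 ± 14.5 CPM in EDN1 and 106 ± 15.6 CPM in mock (SD, n = 4 each), with a log2 fold change of -0.19 (SE 0.16). IARS, the isoleucyl enzyme, averaged 54.1 ± 16.7 CPM in EDN1 and 64.8 ± 18.9 CPM in mock (log2 fold change -0.26, SE 0.26), which ran from -0.47 without EDN1 2 to -0.13 without EDN1 3. QARS, the glutaminyl enzyme, averaged 81.0 ± 15.7 CPM in EDN1 and 94.0 ± 21.4 CPM in mock (log2 fold change -0.21, SE 0.21), with 0.08 within the second set. The aspartyl gene DARS averaged 113 ± 24.6 CPM in EDN1 and 127 ± 19.98 CPM in mock (log2 fold change -0.17, SE 0.19). The SDs of the groups overlap in each of these genes. Without 1 library the values moved to between -0.29 and -0.078 for EPRS (-0.078 without mock 4), between -0.35 and -0.089 for QARS (-0.089 without EDN1 3) and between -0.29 and -0.056 for DARS (-0.056 without EDN1 3).

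LARS and RARS, the leucyl and arginyl enzymes, varied most between libraries among the complex members. LARS had 75.8, 93.1, 95.2 and 184 CPM in EDN1 1 to 4 and 89.7, 140.3, 105 and 145 CPM in mock 1 to 4. EDN1 4 was the highest and EDN1 1 the lowest of all 8 libraries, and the log2 fold change of -0.10 (SE 0.28) became 0.05 without EDN1 1 and 0.00 without mock 4. RARS had 112, 85.7, 235 and 185 CPM in EDN1 1 to 4 and 119.9, 107, 114 and 219.9 CPM in mock 1 to 4. EDN1 3, EDN1 4 and mock 4 were the high libraries in both groups. Over all libraries the log2 fold change of RARS was 0.14 (SE 0.33), but it was -0.20 within the first set, -0.08 within the second and -0.13 without EDN1 3.

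Outside the complex, GARS and YARS were among the members with the smallest unadjusted p. GARS, the glycyl enzyme of both compartments, had 173, 239, 191 and 282 CPM in EDN1 1 to 4 and 289.5, 252, 274 and 292 CPM in mock 1 to 4. All EDN1 libraries except EDN1 4 were below the lowest mock library. For GARS this came to -0.32 on the log2 fold change scale (SE 0.17, 95% interval -0.70 to 0.06), with -0.40 and -0.31 within the first and second sets. YARS, the tyrosyl enzyme, had 133, 159, 148 and 158 CPM in EDN1 1 to 4 and 182, 161, 202 and 166 CPM in mock 1 to 4. The highest EDN1 library lay just below the lowest mock library. Its log2 fold change was -0.25 (SE 0.14, 95% interval -0.55 to 0.05), with -0.31 and -0.13 within the sets, and the unadjusted p was 0.0987.

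SARS, the seryl enzyme, had 142, 193, 202 and 242 CPM in EDN1 1 to 4 and 237, 224, 232 and 265 CPM in mock 1 to 4, and NARS, the asparaginyl enzyme, had 185, 203, 201 and 253 CPM in EDN1 1 to 4 and 235, 259.9, 241 and 255 CPM in mock 1 to 4. In both genes EDN1 1 was the lowest library, and EDN1 4 alone among the EDN1 libraries reached the mock range. The log2 fold change of SARS was -0.30 (SE 0.17), with -0.47 and -0.27 within the sets, and it was -0.17 without EDN1 1. For NARS it was -0.24 (SE 0.14), with -0.34 and -0.18 within the sets. AARS, the alanyl enzyme, had the most negative log2 fold change of the 36 genes, -0.42 (SE 0.28, 95% interval -1.05 to 0.21). Its values were 116, 146, 63.1 and 86.5 CPM in EDN1 1 to 4 and 155, 179, 133 and 83.8 CPM in mock 1 to 4. The 3 lowest libraries were those of the second set, and the log2 fold change was -0.25 in the first set, -0.17 in the second, -0.64 without EDN1 2 and -0.25 without EDN1 3.

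**Figure D3:**
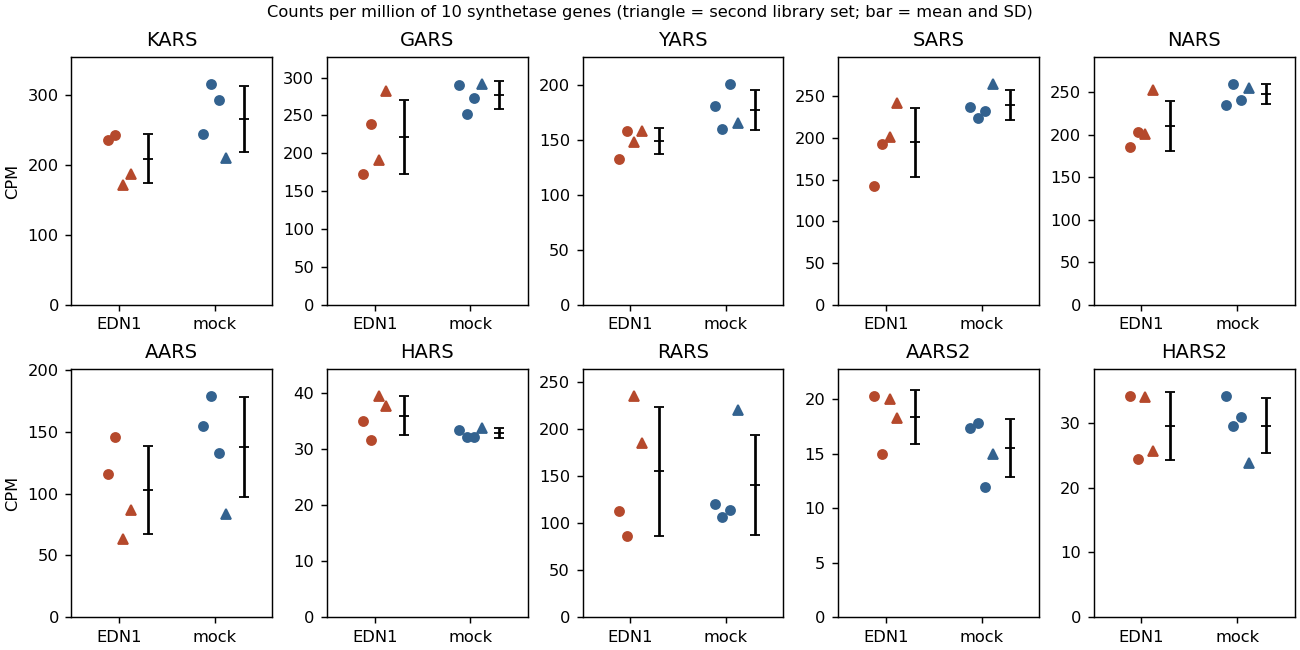
CPM (vertical axes from 0) of 10 synthetase genes, 1 point per library, with EDN1 left of mock, triangles for the second library set and bars for the mean and SD of 4 libraries. The groups overlap in all panels except YARS, and the triangles of RARS lie at 185 to 235 CPM against 85.7 to 119.9 CPM for the circles.

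WARS, the tryptophanyl enzyme, had 80.3, 87.4, 59.7 and 49.7 CPM in EDN1 1 to 4 and 110.3, 68.4, 110.5 and 59.6 CPM in mock 1 to 4. Mock 1 and mock 3 were the high libraries and EDN1 4 the lowest. Its log2 fold change was -0.33 (SE 0.25), with -0.20 and -0.14 within the sets, and -0.20 without mock 1. TARS, the threonyl enzyme, had 347, 408, 406 and 503 CPM in EDN1 1 to 4 and 547, 406, 439.8 and 538 CPM in mock 1 to 4, where EDN1 1 alone was below the mock range. For TARS the log2 fold change was -0.21 (SE 0.17), with -0.30 and -0.25 within the sets. CARS, the cysteinyl enzyme, had 63.5, 103, 74.2 and 119 CPM in EDN1 1 to 4 and 102, 110.1, 90.9 and 126 CPM in mock 1 to 4. EDN1 1 and EDN1 3 were below every mock library, and the log2 fold change was -0.26 (SE 0.21), with -0.28 and -0.40 within the sets, and -0.12 without EDN1 1.

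FARSA and FARSB encode the alpha and beta subunits of the cytosolic phenylalanyl enzyme. FARSA had 176, 179.8, 312 and 266 CPM in EDN1 1 to 4 and 187, 198, 216 and 333 CPM in mock 1 to 4. FARSB had 81.8, 98.8, 74.8 and 64.2 CPM in EDN1 1 to 4 and 109, 72.0, 117 and 69.9 CPM in mock 1 to 4. The 3 libraries of the second set were the highest for FARSA, and those of EDN1 4 and mock 4 the lowest for FARSB. The log2 fold change was 0.00 (SE 0.24) for FARSA, with -0.17 and -0.22 within the sets, and it was 0.22 without mock 4. It was -0.20 (SE 0.21) for FARSB, with -0.14 and -0.02 within the sets, -0.068 without mock 3 and -0.32 without EDN1 2. VARS, the valyl enzyme, averaged 44.1 ± 6.88 CPM in EDN1 and 46.8 ± 6.66 CPM in mock (SD, n = 4 each; log2 fold change -0.09, SE 0.17).

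HARS, the histidyl enzyme, was the cytosolic gene whose log2 fold change stayed above 0 within both sets. It had 35.0, 31.6, 39.5 and 37.6 CPM in EDN1 1 to 4 and 33.4, 32.1, 32.1 and 33.7 CPM in mock 1 to 4, a log2 fold change of 0.13 (SE 0.13). HARS2, on the other side of the 84 bases printed above, had 34.2, 24.4, 34.0 and 25.6 CPM in EDN1 1 to 4 and 34.2, 29.5, 30.9 and 23.8 CPM in mock 1 to 4, a log2 fold change of 0.00 (SE 0.18). EDN1 2 was the lowest EDN1 library for both genes. Exons of the divergent pair overlap in the GENCODE 29 annotation, and exons of HARS2 also overlap ZMAT2 on the same strand. A part of the reads may therefore not be separable. Where the overlaps lie relative to the read tags was not examined.

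**Figure D4:**
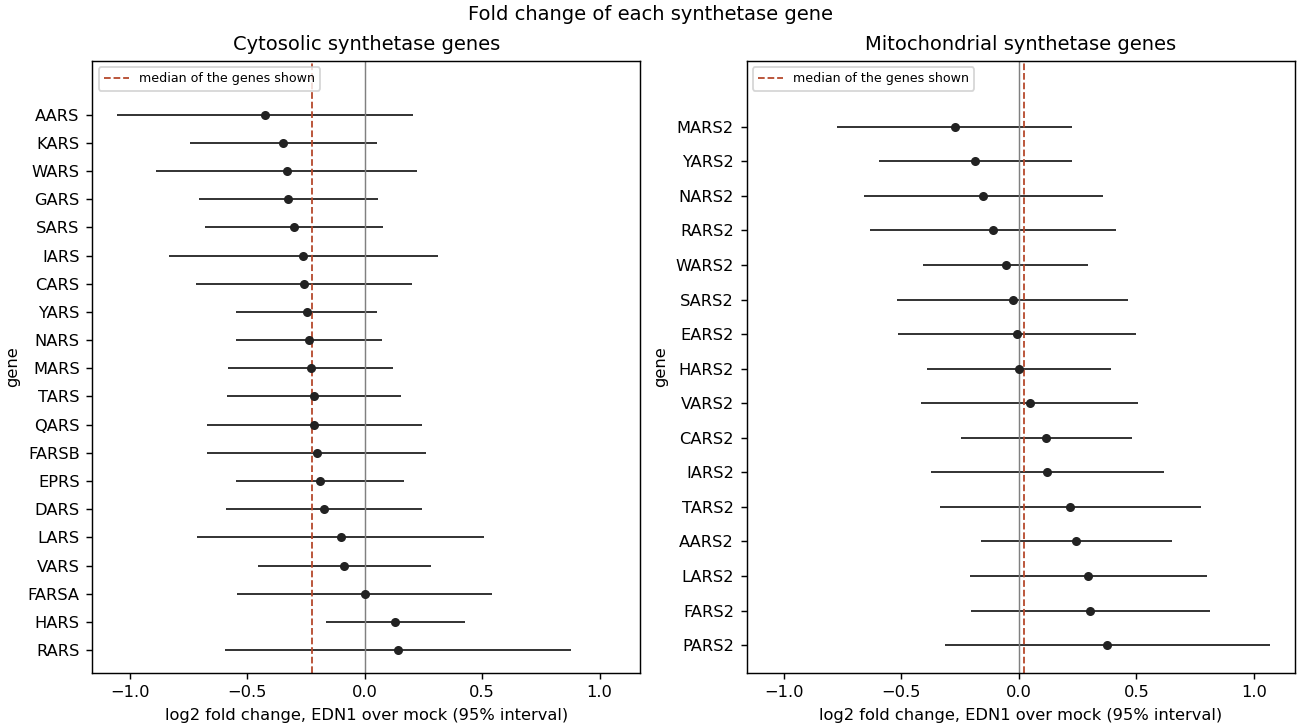
Log2 fold change of EDN1 over mock with its 95% interval (horizontal axis) for each of the 20 cytosolic (left) and 16 mitochondrial (right) synthetase genes, with a dashed line at the median of the genes shown. Every interval spans 0, and the medians are -0.22 and 0.02.

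Among the mitochondrial genes the fitted differences had both signs. AARS2, the alanyl enzyme, had 20.3, 14.97, 19.995 and 18.2 CPM in EDN1 1 to 4 and 17.4, 17.8, 11.9 and 14.99 CPM in mock 1 to 4. All EDN1 libraries except EDN1 2 were above the highest mock library. Its log2 fold change was 0.24 (SE 0.18), with 0.17 and 0.34 within the sets, and it was 0.14 without mock 3. FARS2, the phenylalanyl enzyme, had 21.1, 17.7, 31.8 and 19.7 CPM in EDN1 1 to 4 and 18.3, 13.3, 18.4 and 23.1 CPM in mock 1 to 4 (log2 fold change 0.30, SE 0.23), and LARS2, the leucyl enzyme, had 27.5, 24.2, 39.1 and 22.7 CPM in EDN1 1 to 4 and 29.2, 16.4, 21.2 and 25.5 CPM in mock 1 to 4 (log2 fold change 0.30, SE 0.23). EDN1 3 was the highest and mock 2 the lowest library for both genes, and without EDN1 3 the log2 fold changes were 0.09 and 0.10.

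PARS2, the prolyl enzyme, was the least counted member, with 22 to 48 counts in EDN1 libraries and 15 to 60 counts in mock libraries. It had 3.66, 5.22, 4.21 and 2.54 CPM in EDN1 1 to 4 and 2.89, 1.85, 3.01 and 4.15 CPM in mock 1 to 4. The groups overlapped, and the log2 fold change of 0.38 (SE 0.31) was 0.76 in the first set and -0.30 in the second. MARS2, the methionyl enzyme, had 12.8, 14.7, 9.38 and 11.4 CPM in EDN1 1 to 4 and 17.6, 10.4, 17.6 and 12.6 CPM in mock 1 to 4 (log2 fold change -0.27, SE 0.23). YARS2, the tyrosyl enzyme, had 19.6, 15.8, 17.5 and 14.6 CPM in EDN1 1 to 4 and 24.0, 15.1, 19.7 and 17.9 CPM in mock 1 to 4 (log2 fold change -0.19, SE 0.19). For both, mock 1 or mock 3 was the highest library and mock 2 was lower than the other mock libraries. Without mock 1 the log2 fold changes were -0.17 for MARS2 and -0.059 for YARS2.

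The other 9 mitochondrial genes, beside HARS2, had log2 fold changes between -0.15 (NARS2, the asparaginyl enzyme, SE 0.23) and 0.22 (TARS2, SE 0.25). IARS2, the isoleucyl enzyme, had 77.8, 92.4, 98.7 and 156 CPM in EDN1 1 to 4 and 85.9, 104, 81.9 and 119 CPM in mock 1 to 4, with EDN1 4 and mock 4 the highest (log2 fold change 0.12, SE 0.22, and -0.13 without EDN1 4). CARS2 and VARS2, the cysteinyl and valyl enzymes, were at 0.12 (SE 0.17) and 0.05 (SE 0.21) on the log2 fold change scale. EARS2, which charges both glutamate and glutamine tRNAs in the mitochondrion, averaged 21.4 ± 4.98 CPM in EDN1 and 21.6 ± 5.40 CPM in mock (SD, n = 4 each; log2 fold change -0.01, SE 0.23). The seryl, tryptophanyl and arginyl genes SARS2, WARS2 and RARS2 were at -0.03 (SE 0.22), -0.06 (SE 0.16) and -0.11 (SE 0.24) on the same scale. TARS2, the threonyl enzyme, had its lowest value, 7.07 CPM, in mock 3, and without that library its log2 fold change was 0.02.

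Most members differed more between the library sets than between the groups, as most genes did. In the fit with both terms, the set difference was larger in size than the group difference in 13 of 20 cytosolic and 11 of 16 mitochondrial genes, and in 8794 of 12577 tested genes. The median size of the log2 difference between the sets was 0.39 for the cytosolic genes, 0.24 for the mitochondrial genes and 0.28 for all tested genes. Because the libraries were split by these counts, the set differences are a description with no test. RARS averaged 213 CPM in the second set and 108 CPM in the first, a log2 difference of 1.03 (SE 0.14), and FARSA averaged 304 CPM in the second set and 191 CPM in the first, a log2 difference of 0.72 (SE 0.11). AARS averaged 77.8 CPM in the second set and 146 CPM in the first, a log2 difference of -0.84 (SE 0.16). WARS (-0.65), RARS2 (-0.64), IARS (-0.61), QARS (-0.52), DARS (-0.49), FARSB (-0.43) and KARS (-0.42) were also lower in the second set, while LARS (0.58), IARS2 (0.51) and FARS2 (0.44) were higher. Both directions occurred among the cytosolic genes (9 lower and 11 higher), within the complex (5 lower and 3 higher), and within the subunit pair FARSA and FARSB. YARS (-0.01) and MARS (-0.00) had almost the same level in both sets.

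**Figure D5:**
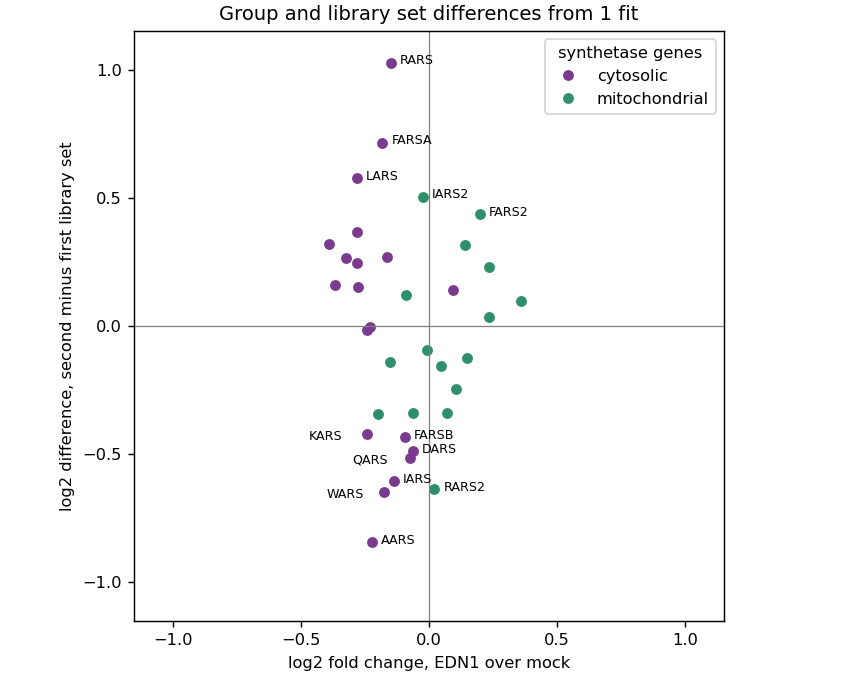
Log2 difference between the second and first library sets (vertical axis) against log2 fold change of EDN1 over mock (horizontal axis), both from 1 fit with both terms, for the 20 cytosolic and 16 mitochondrial synthetase genes, with genes labelled where the set difference is large. The points spread from -0.84 (AARS) to 1.03 (RARS) on the vertical axis, and all cytosolic genes except HARS lie left of 0 on the horizontal axis.

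The related genes of tRNA charging and use had 0 members called in either direction. The scaffold genes AIMP1, AIMP2 and EEF1E1 had log2 fold changes of -0.05 (SE 0.13), -0.07 (SE 0.24) and -0.03 (SE 0.21), closer to 0 than most of the enzymes they hold. Among genes for proofreading and export of tRNAs, 3 of 5 were below 0 (median 0.00), with the deacylase genes DTD1 at -0.08 (SE 0.20) and DTD2 at -0.14 (SE 0.17), AARSD1, which clears mischarged alanine tRNA, at 0.04 (SE 0.15) and ANKRD16 at 0.10 (SE 0.20). XPOT, the nuclear export receptor for tRNA, had 11.1, 51.0, 5.88 and 52.2 CPM in EDN1 1 to 4 and 31.5, 56.8, 14.5 and 17.5 CPM in mock 1 to 4. Its log2 fold change was -0.00 (SE 0.66). It was named after its values were seen, because EDN1 1 and EDN1 3 were its lowest libraries while EDN1 2 and EDN1 4 were in the upper mock range.

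For selenocysteine tRNA, 3 of 4 genes were below 0 (median -0.06). SEPSECS, which completes selenocysteine on its tRNA, had 6.51, 18.5, 6.67 and 18.9 CPM in EDN1 1 to 4 and 18.3, 17.5, 16.5 and 14.3 CPM in mock 1 to 4 (log2 fold change -0.41, SE 0.35). EDN1 1 and EDN1 3 were low and EDN1 2 and EDN1 4 were above every mock library. PSTK, SEPHS1 and SEPHS2 had log2 fold changes of -0.04 (SE 0.29), -0.07 (SE 0.14) and 0.11 (SE 0.15). In the mitochondrial partners, 1 of 4 was below 0 (median 0.00). Of these, QRSL1 (-0.09, SE 0.16), GATB (0.00, SE 0.20) and GATC (0.00, SE 0.16) form the amidotransferase that makes glutamine tRNA from the product of EARS2, and MTFMT (0.13, SE 0.19) formylates the initiator methionine tRNA.

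The list of elongation factors, which bring charged tRNAs to the ribosome and move them through it, also holds GFM2, which acts in recycling of the mitochondrial ribosome. Its log2 fold changes were below 0 in 4 of 5 cytosolic genes (median -0.08) and in 1 of 4 mitochondrial genes (median 0.02). The cytosolic median was -0.19 with the library set as a term, and leaving out EDN1 4, mock 1, EDN1 1 or mock 2 gave -0.23, -0.16, -0.030 or -0.0061. EEF1B2, an exchange factor subunit, had 829.5, 928, 818 and 946 CPM in EDN1 1 to 4 and 947, 1062, 1033 and 979 CPM in mock 1 to 4, a log2 fold change of -0.19 (SE 0.13), and its groups did not overlap by a narrow margin. EEF1A1, which carries charged tRNAs to the ribosome, was at 0.08 (SE 0.40) with a wide spread. Its log2 fold change was -0.23 with the library set as a term, -0.24 in the first set and -0.22 in the second. EEF1D, EEF1G and EEF2 had log2 fold changes of -0.07 (SE 0.15), -0.08 (SE 0.18) and -0.13 (SE 0.26). TUFM, TSFM, GFM1 and GFM2 had log2 fold changes of 0.01 (SE 0.12), 0.04 (SE 0.14), -0.05 (SE 0.20) and 0.02 (SE 0.16).

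In the list of GCN2 and ATF4 axis genes, 9 of 11 tested genes were below 0, at a median of -0.42 on the log2 scale, and 0 were called. The median was -0.28 in the first set, -0.37 in the second and -0.23 without mock 1. The genes not below 0 were EIF2AK4, the gene of GCN2 itself, at 0.25 (SE 0.20), with 3 EDN1 libraries above every mock library, and NUPR1 at 0.02 (SE 0.25), both named after their values were seen. CHAC1, the other gene of that list, never exceeded 10 counts in a library and failed the filter. ATF4 itself had 911, 1071, 695 and 851 CPM in EDN1 1 to 4 and 1254, 1079, 1187 and 843 CPM in mock 1 to 4, with EDN1 3 alone below the mock range (log2 fold change -0.31, SE 0.18). CEBPG, a partner of ATF4, had 60.5, 101, 52.9 and 73.2 CPM in EDN1 1 to 4 and 124, 88.2, 91.9 and 80.8 CPM in mock 1 to 4 (log2 fold change -0.42, SE 0.22). DDIT4, a stress-induced inhibitor of mTOR signalling, had 318, 621, 305 and 364 CPM in EDN1 1 to 4 and 738, 412, 574 and 527 CPM in mock 1 to 4 (log2 fold change -0.49, SE 0.26). Both genes were low in EDN1 1 and EDN1 3 and highest in mock 1. The list mean was -0.36, 0.13, -0.39 and -0.05 in EDN1 1 to 4 and 0.44, -0.10, 0.15 and 0.16 in mock 1 to 4. EDN1 1 and EDN1 3 were the lowest libraries, whereas EDN1 2 and EDN1 4 lay within the mock range. The same libraries had the lowest list mean for the 8 liver cell markers and for the selenocysteine list (-0.25 in each). The liver cell mean was -0.38, 0.14, -0.26 and 0.17 in EDN1 1 to 4. In mock 1 to 4 it was -0.10, 0.13, 0.13 and 0.17. By gene, EDN1 1 was the lowest library for 4 liver cell markers, mock 2 for 2, and EDN1 3 and mock 4 for 1 each. EDN1 3 was the lowest for 0 of 4 selenocysteine genes and the highest for 1. The mitochondrial synthetase mean was not low in EDN1 1 and EDN1 3 (0.11 and 0.12). The part of these libraries in the synthetase and ATF4 axis values was not tested beyond leaving each out.

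The members with a TGATGNAA match had log2 fold changes of -0.42 (AARS), -0.32 (GARS), -0.26 (IARS) and -0.19 (YARS2). Over all tested genes matched to a window, the 231 with a match had a median log2 fold change of -0.01, with 53.7% below 0, and the 9668 with none had a median of 0.00, with 49.4% below 0. Among members with a window and no match, 10 of 13 cytosolic genes were below 0 (median -0.21, range -0.35 to 0.14) and 6 of 13 mitochondrial genes (median 0.00, range -0.27 to 0.38).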

How the data were processed

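The deposited file holds raw read counts per gene for 8 libraries. Per the labels' protocols they were prepared with a QuantSeq kit from Lexogen. Such kits read tags near transcript ends, so CPM was not divided by the deposited gene length, and levels are not compared between genes. The submitters' processing notes name Bowtie2, edgeR and hg19. How reads were assigned to genes, and whether strand was used, is not stated in the sources used here. Exons of 17 members overlap a gene on the opposite strand, and 11 members have a pseudogene named after them (GENCODE 29). On the same strand, exons of HARS2, SARS2 and VARS2 overlap another gene (ZMAT2, AC011455.2 and GTF2H4). Those of MARS, QARS and TARS2 overlap a microRNA gene there. The counts of all these members are less certain.

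Rows of 1 symbol were summed (25737 rows, 24462 genes), and MARCH1 and MARCH2 rows were kept apart. Among the members, VARS was summed from 7 rows and VARS2 from 6, while every other member had 1 row. The test was edgeR 4.0.16's quasi-likelihood test (R 4.3.3) with group as the only term, filterByExpr (minimum count 10), TMM scaling and Benjamini-Hochberg adjustment over 12577 genes, threshold 0.05. CPM uses TMM-scaled library sizes, except that marker sums use raw library totals; log2 CPM used a prior count of 2. The SE is the log2 fold change over the square root of F. The fit was tested on simulated counts without a difference between library sets, so that test does not cover such a difference. All library pairs differed by more than sampling noise (chi-square per degree of freedom 6.38 to 93.3). Promoter sequences are from RefSeq, GRCh38.p14.

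The members, lists, library sets and alternatives were chosen with earlier results of these data known. Values in every library are given for the 10 cytosolic and 6 mitochondrial members with the smallest p, and any member without overlap. Up to 4 genes per related list were named by p. Library values of other members, and XPOT and EEF1A1, were added after they were seen. Alternatives were other scalings, no filter, DESeq2 1.42.0, limma 3.58.1 voom, a replicate block, the library sets, rows as deposited and leaving out each library.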

Additional observations from a re-analysis of the deposited data

Results flagged for a closer look

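In 3 members a mock library lay far from the other 3 of its group, by the gap to its nearest neighbour relative to the group's range. This was screened in 76 sets of 4 libraries, where chance alone flags about 1 in 20. RARS had 219.9 CPM in mock 4, against 107 to 119.9 CPM in mock 1 to 3. EPRS had 129 CPM in mock 4, against 96.0 to 100.0 CPM in the other mock libraries. Mock 4 is the lone mock library of the second set, and RARS and EPRS were also higher in that set among the EDN1 libraries. MARS had 401 CPM in mock 1, against 320.4 to 331 CPM in the other mock libraries, and without mock 1 its log2 fold change was -0.15, against -0.23 over all libraries.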

How the results depend on the processing

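No member was called under any of the 18 alternatives. The smallest adjusted p of a member ran from 0.803 (edgeR, without EDN1 4) to 1.00 over the alternatives. DESeq2 called 3 genes over all genes and each other alternative 1. Unadjusted p fell below 0.05 for 359 genes, against 570 without the filter, 550 with the replicate block, 526 with the library set as a term, 45 in the second set alone and 184 to 738 without each library. The number of cytosolic genes below 0 ran from 16 to 19 and their median from -0.28 to -0.18 without each library in turn, and for the mitochondrial genes these were 5 to 9 and -0.04 to 0.12. With the replicate number as a block, 1 gene was called, AARS had an unadjusted p of 0.0405 (4.37% of genes were under 0.05), and 18 cytosolic genes (FARSA joining at -0.00516) and 8 mitochondrial genes (HARS2 joining at -0.00603) were below 0. Same-numbered libraries correlated at 0.48, 0.15, -0.15 and 0.53 after removal of group means. The best-correlated mock library was mock 1 for EDN1 1, mock 3 for EDN1 2, and mock 4 for EDN1 3 and for EDN1 4. Differences between the library sets were not removed, so this check cannot decide whether the numbers pair the samples. Library totals with no further scaling moved the median of all genes to 0.04.

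Of 648 member values, 597 kept their sign, and 23 of 36 members kept it throughout. In the following members it turned, and the cause was not tested. FARSA was -0.00137 without the filter, -0.00280 by limma voom, -0.18 with the library set, -0.17 and -0.22 within the first and second sets, and -0.17 to 0.22 without each library. RARS was -0.15 with the set, -0.20 and -0.077 within the sets, and -0.13 to 0.45 without each library. EARS2 was 0.029 with library totals, 0.00186 by limma voom, 0.071 with the set, 0.067 and 0.065 within the sets, and -0.15 to 0.12 without each library. IARS2 was -0.024 with the set, -0.090 in the first set and -0.13 to 0.24 without each library. RARS2 was 0.021 with the set, 0.077 in the first set and -0.23 to 0.035 without each library. SARS2 was 0.014 with library totals, 0.095 in the first set and -0.15 to 0.13 without each library. HARS2 was -0.10 in the first set and -0.092 to 0.081 without each library. In the second set QARS was 0.080, NARS2 0.063, PARS2 -0.30 and WARS2 0.092. Without each library, LARS ran from -0.45 to 0.046, NARS2 from -0.27 to 0.021 and VARS2 from -0.079 to 0.20.

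PARS2 had as few as 15 counts in a library, the fewest of any member.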
